A study of Mus musculus with 9 samples.

Results

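The comparison described here sets mouse 2-cell embryos that received high glucose and ZGW serum against embryos that received high glucose alone, across all genes with enough counts. Its members are 6 of the 9 libraries of the series, 3 in each group, and 16964 of the 24454 genes in the count table passed the filter on low counts. All embryos were of the ICR strain, an outbred stock, and zygotes of every group were grown in culture to the 2-cell stage. The high glucose group was loaded with glucose, and the ZGW serum group was loaded with glucose and treated with rat serum that carried the drug the labels call ZGW, which they do not spell out. A control group of 3 libraries is given beside some values and lent its spread to the test. The labels do not say whether control or high glucose embryos received rat serum without the drug, so serum itself and the drug cannot be told apart. Each library pooled 3 embryos, and the labels do not name matings or litters, so p-values measure only the spread between these small pools.

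The mouse embryo begins on RNA and protein that the oocyte stored. At the 2-cell stage it transcribes its own genome in a main wave, while a set of genes such as the Zscan4 and Usp17-like families is switched on briefly and stored oocyte transcripts are broken down. Transcripts for ribosomes, the spliceosome and the respiratory chain are made in this wave as well. The early embryo takes up pyruvate and lactate as its main fuels and uses glucose sparingly, and an excess of glucose in the medium is known to hinder its development.

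Marker genes were set against the label of a 2-cell embryo. All 7 of the 2-cell markers were counted in the 6 libraries, with a summed level of 10640 to 14965 CPM (counts scaled to the library total) in high glucose libraries and 3453 to 9127 CPM in ZGW serum libraries. Control libraries summed to 7363 to 12601 CPM. Gm5662 made up 8621, 5855 and 5193 CPM of the high glucose sums and 3582, 5776 and 1903 CPM of the ZGW serum sums, with overlap. The groups lay apart in 4 of the 7 markers. Blastocyst markers summed to 26.4 to 63.4 CPM in high glucose libraries and 34.1 to 47.2 CPM in ZGW serum libraries. Library totals ran from 11934924 to 16916343 counts, and replicate 1 of high glucose and replicate 3 of ZGW serum lay at the 2 ends of the first principal component of the 6 libraries (-122.9 and 102.3). Counts over some of the gene lists are also given without them, where stated. All other counts over lists, and those by level and over small RNA genes, are given with all 6 libraries.

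Among the genes that stood furthest apart, Snrpg of the spliceosome, the ribosomal protein gene Rpl32, and Cox7a2 and Ndufa4 of the respiratory chain were higher with ZGW serum. Paip1, Stip1, Fbxo5 and 3 Usp17-like genes were lower. No gene passed the test across all genes: edgeR's quasi-likelihood test called 0 of 16964 (0%) at an adjusted p under 0.05, and the lowest adjusted p was 0.370. At an unadjusted p under 0.05, 644 genes (3.8%) were higher and 829 (4.89%) were lower, and without replicate 1 of high glucose 415 were higher. Without the 2 libraries at the ends of the first component, 1.88% of all genes were higher and 3.30% lower at that level. In 1540 genes (9.08%) all 3 ZGW serum libraries lay above all 3 high glucose libraries, and in 1402 (8.26%) all lay below. DESeq2 called 241 genes at the same adjusted level, 86 higher and 155 lower, so the count of called genes depends on the tool. The split at unadjusted p depended on scaling: with upper-quartile factors, which moved the median log2 fold change of all genes from 0.00 to 0.14, 864 were higher and 569 lower.

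The stretches before the start of 4 of these genes are given here to show what kind of promoter stands before a gene of each kind: the first 2 genes were higher with ZGW serum, the last 2 lower. Each runs 5' to 3' on the gene's strand over the 250 bases before the start listed by RefSeq (GRCm38.p6), at chr6:86371290-86371539 (plus strand) for Snrpg, chr9:79759854-79760103 (minus strand) for Cox7a2, chr19:7040027-7040276 (minus strand) for Stip1 and chr7:103416446-103416695 (plus strand) for Usp17lc. Capitals mark matches, on either strand, to the letters of known promoter elements: CCAAT for the CCAAT box, GGGCGG for SP1, TATAAA for the TATA box, CCGGAAG for ETS factors and TGACGTCA for the cyclic AMP element. AAGATGGC for YY1 and CACGTG for the E-box were searched as well and have no match in these stretches. No marked matches overlap each other. The RefSeq start lies inside the gene as GENCODE draws it by 236 bases for Snrpg, 25 for Cox7a2 and 1624 for Usp17lc, so the stretches of Snrpg and Usp17lc lie mostly or wholly within the GENCODE gene. For Stip1 it lies outside.
Snrpg: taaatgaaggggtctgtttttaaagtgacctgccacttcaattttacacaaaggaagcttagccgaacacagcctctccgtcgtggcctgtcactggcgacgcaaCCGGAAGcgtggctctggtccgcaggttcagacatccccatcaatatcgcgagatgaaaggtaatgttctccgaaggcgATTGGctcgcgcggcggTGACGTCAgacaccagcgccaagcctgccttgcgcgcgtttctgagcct
Cox7a2: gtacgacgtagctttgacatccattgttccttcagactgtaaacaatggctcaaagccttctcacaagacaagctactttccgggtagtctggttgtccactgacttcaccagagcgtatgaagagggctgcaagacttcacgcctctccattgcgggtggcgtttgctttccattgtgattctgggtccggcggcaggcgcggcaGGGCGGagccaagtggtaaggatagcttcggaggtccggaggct
Stip1: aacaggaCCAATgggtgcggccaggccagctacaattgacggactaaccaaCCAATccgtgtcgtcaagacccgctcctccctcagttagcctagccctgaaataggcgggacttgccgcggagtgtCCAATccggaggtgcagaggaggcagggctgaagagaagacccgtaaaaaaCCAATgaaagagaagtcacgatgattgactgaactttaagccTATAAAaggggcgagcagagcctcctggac
Usp17lc: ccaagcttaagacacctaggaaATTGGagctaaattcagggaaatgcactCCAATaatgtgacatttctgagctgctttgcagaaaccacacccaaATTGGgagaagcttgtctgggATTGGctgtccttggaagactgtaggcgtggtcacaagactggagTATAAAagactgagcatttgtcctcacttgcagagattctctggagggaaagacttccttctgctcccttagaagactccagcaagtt
A TATA box match stood before Stip1 and Usp17lc and not before Snrpg or Cox7a2. Over all genes, in windows of 300 bases that reach 50 bases past the start, the motifs were near their background in both directions. The ETS letters stood in 17.7% of the windows of genes higher at an unadjusted p under 0.05, in 18.1% of those lower and in 15.3% of all genes tested with a window, against 9.12% of the 27025 promoters in the table. The TATA letters stood in 7.77%, 10.1% and 8.99% and in 14.2% of all promoters. The CCAAT letters stood in 39.6%, 42.1% and 39.3% and in 37.9% of all promoters. Of all promoters, 35.9% held the SP1 letters, 1.88% those of the cyclic AMP element, 2.88% those of YY1 and 7.24% those of the E-box. Among genes tested the SP1 letters stood in 57.5%, against 55.3% of genes higher and 55.9% of genes lower. The median GC content of the windows was 58.3% for genes higher, 58.5% for genes lower and 59.3% for genes tested. A match of letters is a description of the window and not of binding.

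Snrpg encodes the Sm protein G, one of the ring of Sm proteins that most spliceosomal small nuclear ribonucleoproteins carry. It lies on chromosome 6 from 86371304 to 86379328, plus strand (GRCm38, GENCODE M21). Its level was 1002, 1052 and 1175 CPM in the high glucose libraries and 2258, 2837 and 4240 CPM with ZGW serum. The groups lay apart, and control, at 1943, 1912 and 1472 CPM, lay between them. The log2 fold change of ZGW serum over high glucose was 1.53 ± 0.27 (SE, n = 3 and 3; edgeR adjusted p = 0.370). Of the 50-base stretches of its transcripts, 18.6% also occur in transcripts of other genes, predicted genes among them, so part of its counts may belong to copies.

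Cox7a2, a small subunit of cytochrome c oxidase in the inner mitochondrial membrane, is on chromosome 9 from 79755361 to 79759878, minus strand. It was at 237, 274 and 302 CPM under high glucose and at 632, 667 and 993 CPM with ZGW serum (log2 fold change 1.49 ± 0.27). Ndufa4, another subunit of cytochrome c oxidase that was long counted to complex I, was at 157, 201 and 213 CPM under high glucose and at 386, 402 and 508 CPM with ZGW serum (1.18 ± 0.23). For both genes none of the 50-base stretches is shared with another gene, and the groups did not overlap. Cox6b2, the testis-type form of a cytochrome oxidase subunit, was at 207, 634 and 524 CPM and at 1244, 1522 and 1904 CPM (1.77 ± 0.37). Minos1, part of the complex that shapes mitochondrial cristae, was at 293, 321 and 321 CPM and at 554, 675 and 699 CPM (1.04 ± 0.21). In all 4 genes the lowest ZGW serum library lay above the highest high glucose library, and replicate 3 of ZGW serum was the highest of the 6 libraries.

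Nop10, a protein of the box H/ACA particles that guide pseudouridine formation in ribosomal RNA, was at 87.2, 115 and 103 CPM under high glucose and at 221, 220 and 301 CPM with ZGW serum (log2 fold change 1.28 ± 0.24). Snhg8, a non-coding RNA that hosts the small nucleolar RNA Snora24, was at 23.1, 23.6 and 32.8 CPM and at 60.3, 85.5 and 89.1 CPM (1.56 ± 0.31), and Snora24 itself at 10.2, 9.70 and 14.7 CPM and at 27.2, 34.3 and 43.7 CPM (1.60 ± 0.40). Host and guest share sequence, and their reads may not be separable. Rpl32, a protein of the large ribosomal subunit, was at 144, 152 and 181 CPM and at 313, 355 and 418 CPM (1.19 ± 0.25), with 26.8% of its stretches shared. Rps27l, a ribosomal protein paralogue known as a p53 target, was at 1817, 1609 and 1946 CPM and at 3238, 4330 and 5240 CPM (1.25 ± 0.24). None of these 5 genes had overlapping groups, and every value with ZGW serum was above that of every high glucose library. In the list that holds Nop10, of small nucleolar particle proteins and nucleolar ribosome assembly, 37 of 56 genes were lower, with a median of -0.23. At an unadjusted p under 0.05, 1 of these was higher (1.79%, against 3.8% of all genes) and 3 lower (5.36%, against 4.89%).

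The remaining genes of the first 12 were Hypk, which binds the huntingtin protein and the N-terminal acetylation enzyme (1.51 ± 0.30 on the log2 scale), Med31, a subunit of Mediator (1.24 ± 0.26), and Omt2a, an abundant oocyte transcript (1.08 ± 0.23). Hypk shares 52.3% of its stretches, first with its neighbour Serf2, Med31 shares 36.5%, all with 4930563E22Rik, and Omt2a shares 29.5% with Omt2b, so these counts are uncertain between the genes. Omt2a was at 14774, 20602 and 23073 CPM under high glucose and at 35221, 40923 and 47012 CPM with ZGW serum. Control values of all 12 genes were above every high glucose value of the same gene, and in 11 of the 12 all ZGW serum libraries were above all control libraries. The comparisons share the high glucose and ZGW serum libraries, so the control values are given side by side and not as a further result.

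**Figure D1:**
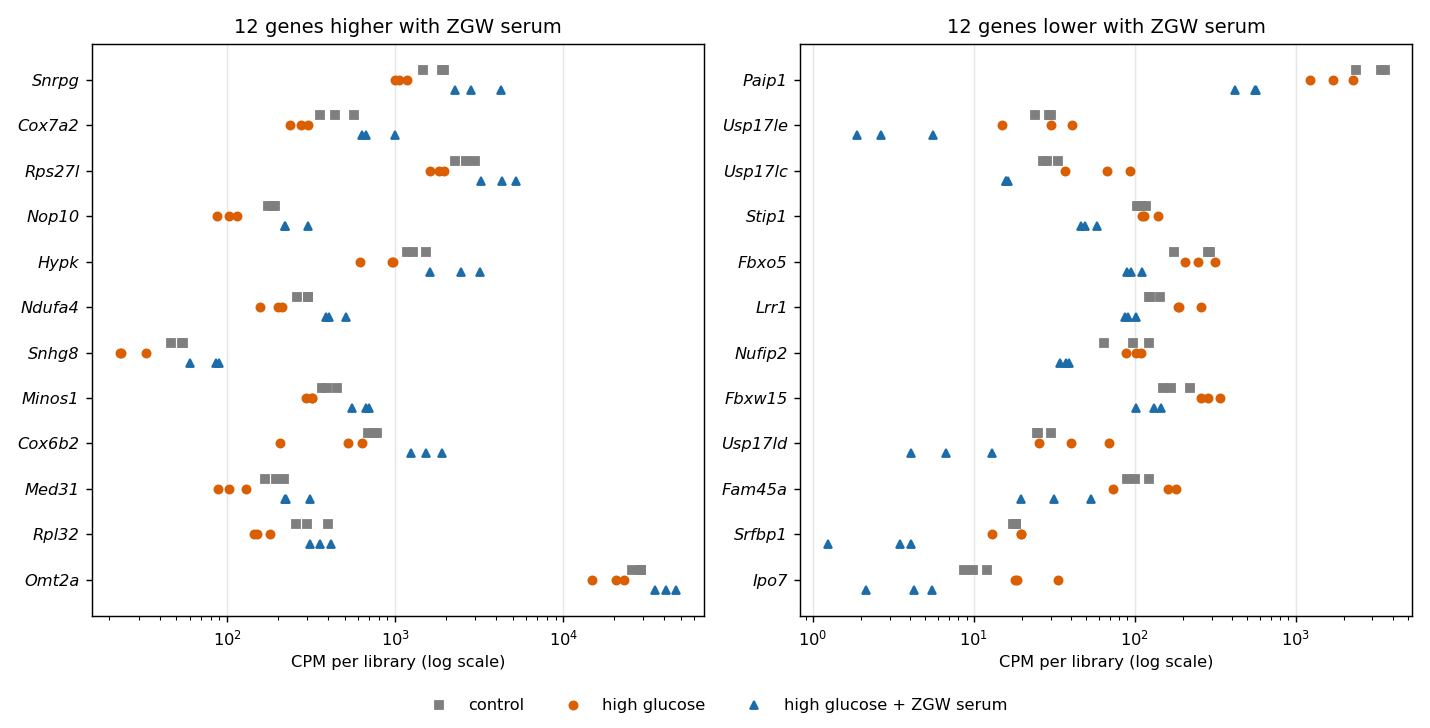
Levels in CPM (log axis) in each of the 9 libraries for the 12 genes of lowest edgeR p-value in each direction; each symbol is 1 library of 3 pooled embryos, grey squares control, orange circles high glucose, blue triangles high glucose with ZGW serum. In all 24 genes the blue and orange symbols do not overlap; in the left panel the orange circles lie lowest, and in the right panel the blue triangles do.

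Paip1 had the lowest p-value of all genes. It encodes a partner of the poly(A)-binding protein that joins the tail of a messenger RNA to the translation initiation machinery, and lies on chromosome 13 from 119428601 to 119458218, plus strand. Its level was 2284, 1715 and 1232 CPM under high glucose and 567, 422 and 556 CPM with ZGW serum, and 3368, 3573 and 2369 CPM in control. All ZGW serum libraries lay under all others, with a log2 fold change of -1.76 ± 0.28 (SE, n = 3 and 3; edgeR adjusted p = 0.370). No stretch of its transcripts is shared with another gene.

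Stip1, the co-chaperone that links Hsp70 with Hsp90, was at 140, 114 and 111 CPM under high glucose and at 49.3, 58.2 and 46.1 CPM with ZGW serum (log2 fold change -1.25 ± 0.25). It lies on chromosome 19 from 7020702 to 7039967, minus strand. Fbxo5, also called Emi1, which inhibits the anaphase-promoting complex, was at 316, 246 and 205 CPM and at 110, 89.1 and 94.9 CPM (-1.38 ± 0.28). Lrr1, a substrate adaptor of a ubiquitin ligase that unloads the replicative helicase, was at 258, 188 and 187 CPM and at 102, 91.4 and 87.5 CPM (-1.17 ± 0.24). These 3 genes were lower in every ZGW serum library than in any high glucose library, and their ZGW serum values were close to each other.

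The other genes of the first 12 in this direction were Nufip2, an RNA-binding protein (-1.42 ± 0.30), Fbxw15, an F-box gene of the oocyte (-1.21 ± 0.26), Fam45a (-1.99 ± 0.44), Srfbp1 (-2.56 ± 0.58), the nuclear import receptor Ipo7 (-2.55 ± 0.58) and the Usp17-like deubiquitinases Usp17le, Usp17lc and Usp17ld. Fbxw15 was at 259, 337 and 284 CPM under high glucose and at 145, 102 and 132 CPM with ZGW serum. Ipo7 was at 17.9, 33.5 and 18.4 CPM and at 5.53, 4.25 and 2.13 CPM. In all 12 genes every ZGW serum library was also below every control library, whereas in 1 of them all high glucose libraries were below all control libraries and in 4 all were above. DESeq2 called all 24 of these genes.

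The rule that named these genes did not use protein length, which was examined after their values were seen. The 11 coding genes among the first 12 that were higher encode 64 to 135 codons, and the 12 that were lower encode 357 to 1038 codons. Coding lengths from GENCODE M21 were matched to 14621 of the genes tested, which were split into 5 classes of nearly equal size. In the shortest class, of 31 to 238 codons with 2945 genes, 57.0% of genes were higher with ZGW serum, with a median log2 fold change of 0.14. In the other 4 classes between 45.1% and 49.0% were higher, with medians from -0.11 to -0.02. At an unadjusted p under 0.05, 7.37% of the shortest class were higher and 3.43% lower, while in the other classes 1.99% to 2.86% were higher and 3.80% to 7.16% lower. Without the 2 libraries at the ends of the first component, 54.4% of the shortest class were higher against 44.3% to 47.4% in the others. With upper-quartile factors 65.0% of the shortest class were higher, with a median of 0.28. In the others 51.4% to 57.0% were higher, with medians from 0.04 to 0.12. The difference between the classes remained, but whether most longer genes were higher or lower depended on scaling.

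The same split was made for genes averaging 10 CPM or more over the 6 libraries. There 54.7% of the shortest class were higher, against 32.5% to 41.5% of the other classes. Of 76 such genes that were higher at an unadjusted p under 0.01, 60 (78.9%) were in the shortest class, against 15 of 161 (9.32%) that were lower and 21.2% of all 6863 genes of that level with a coding length. Of the 86 genes that DESeq2 called higher, 72 had a coding length and 42 of these were in the shortest class. Of the 155 it called lower, 138 had a coding length and 13 were in the shortest class. Genes are not independent of each other, and these counts describe the libraries.

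By share of counts the shortest class separated the groups in every library. Of all counts it held 34.3%, 35.2% and 35.1% in high glucose libraries and 41.3%, 44.5% and 46.6% in ZGW serum libraries, against 42.6%, 42.5% and 37.8% in control. Without the 10 most counted genes of all libraries the shares were 27.5%, 26.4% and 26.2% and then 29.1%, 30.5% and 32.4%, still without overlap. The class of 370 to 525 codons had a lower share with ZGW serum, at 13.4%, 11.6% and 11.3% after 16.9%, 16.3% and 16.1% under high glucose. Median transcript GC content went with direction too, at 52.0% for genes higher and 45.9% for genes lower at an unadjusted p under 0.05 against 50.1% for all, and its part in the length pattern was not tested.

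**Figure D2:**
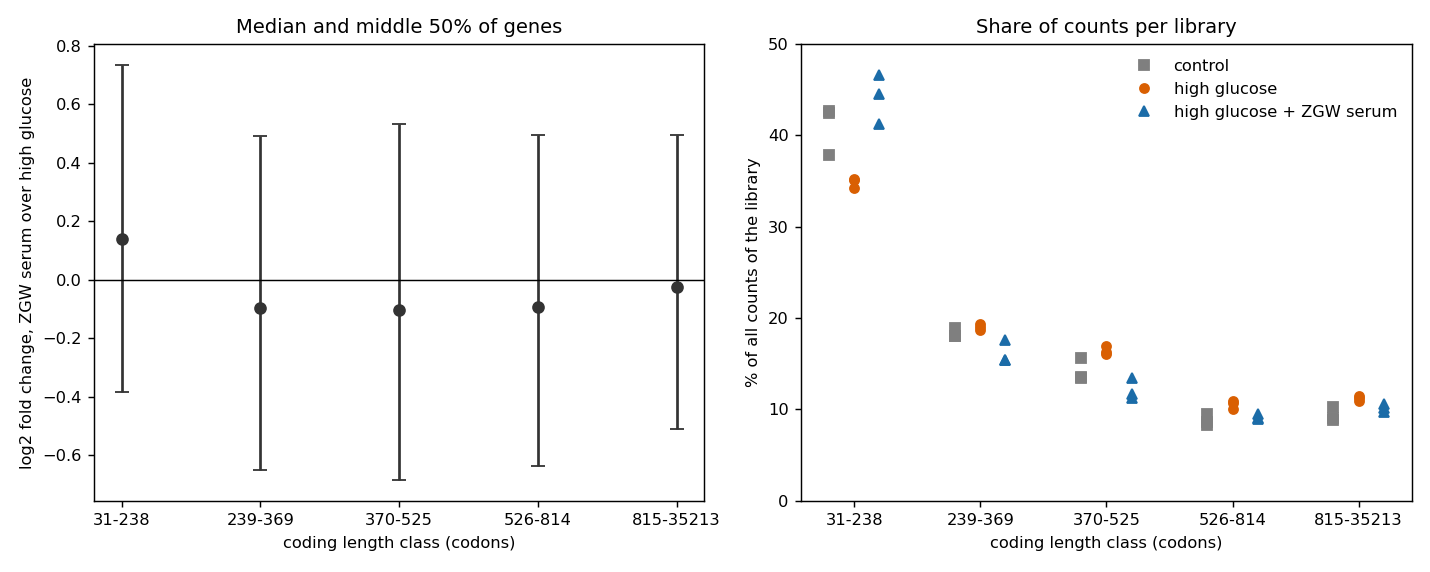
Left, the median (point) and middle 50% of genes (bars) of the log2 fold change of ZGW serum over high glucose in 5 classes of coding length in codons; right, the percent of all counts that each class held in each of the 9 libraries (symbols as labelled). The shortest class, 31 to 238 codons, has a median of 0.14 and the others lie between -0.11 and -0.02; its share is 34.3% to 35.2% in high glucose libraries and 41.3% to 46.6% in ZGW serum libraries.

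Cytoplasmic ribosomal proteins build the 2 subunits of the ribosome. Of the 79 measured, 68 were higher with ZGW serum, with a median log2 fold change of 0.47, against 50.1% of all genes and a median of 0.00. The test gave 27 higher (34.2%, against 3.8% of all genes) and 1 lower (1.27%, against 4.89%) at an unadjusted p under 0.05. Rpl37 was at 60.5, 68.7 and 73.3 CPM under high glucose and at 133, 261 and 149 CPM with ZGW serum (1.42 ± 0.33). Rpl34 was at 46.5, 70.8 and 50.3 CPM and at 129, 138 and 127 CPM (1.23 ± 0.31), and Rps15a at 301, 330 and 286 CPM and at 556, 677 and 1756 CPM (1.71 ± 0.44). All 3 lay apart between the groups, and the high value of Rps15a in replicate 3 of ZGW serum was a single library. The list held 1.02%, 1.51% and 1.15% of the counts in high glucose libraries and 1.54%, 2.58% and 1.66% in ZGW serum libraries. Without the 2 libraries at the ends of the first component 66 members were higher, 12 of them at an unadjusted p under 0.05. Mitochondrial ribosomal proteins were evenly split: 39 of 78 were higher and 39 lower. At an unadjusted p under 0.05, 3 were higher (3.85%, against 3.8% of all genes) and 2 lower (2.56%, against 4.89%).

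Subunits of the respiratory chain pass electrons to oxygen and drive ATP synthase. In complex I, which accepts electrons from NADH, 27 of 36 measured members were higher, with a median of 0.57. In complexes II, III and IV 22 of 26 were higher, with a median of 0.73, and in ATP synthase 15 of 17, with a median of 0.59. At an unadjusted p under 0.05 these were 5, 11 and 5 members higher (13.9%, 42.3% and 29.4%, against 3.8% of all genes) and 0, 1 and 0 lower. Ndufa2 of complex I was at 61.4, 102 and 54.6 CPM under high glucose and at 137, 152 and 129 CPM with ZGW serum (0.94 ± 0.30). Cox7b was at 34.9, 61.1 and 54.7 CPM and at 84.6, 130 and 114 CPM (1.13 ± 0.32). Atp5l, a subunit of the membrane part of ATP synthase, was at 47.1, 45.2 and 42.8 CPM and at 84.5, 126 and 143 CPM (1.39 ± 0.31), and Atpif1, which inhibits the enzyme, at 66.8, 42.4 and 45.8 CPM and at 93.5, 135 and 125 CPM (1.19 ± 0.30). The groups did not overlap in any of these 4 genes. Without the 2 end libraries 28, 20 and 13 members were higher, and the counts at an unadjusted p under 0.05 were 2, 4 and 5. Factors that import proteins into mitochondria or assemble them had 23 of 40 higher and a median of 0.06, with 5 higher (12.5%) and 0 lower at an unadjusted p under 0.05, and 3 and 1 without the 2 end libraries.

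The citrate cycle feeds the chain with electrons. Of its 29 measured genes 26 were lower with ZGW serum, with a median of -0.43, and 2 of them (6.9%, near the 4.89% of all genes) were lower at an unadjusted p under 0.05. Without the 2 end libraries 24 were lower, again 2 at that level, with a median of -0.38. Idh3a, the catalytic subunit of the NAD-dependent isocitrate dehydrogenase, was at 62.3, 80.6 and 79.5 CPM under high glucose and at 30.7, 24.4 and 38.6 CPM with ZGW serum (-1.25 ± 0.31). Its groups did not overlap. Sucla2, a subunit of succinate-CoA ligase, was at 91.2, 49.8 and 53.8 CPM and at 50.8, 17.9 and 26.8 CPM, where 1 library of each group overlapped (-1.03 ± 0.42). None of the 29 genes is in the shortest length class. The list held 0.141%, 0.112% and 0.124% of the counts in high glucose libraries, 0.0935%, 0.1001% and 0.0927% in ZGW serum libraries and 0.0933%, 0.0967% and 0.0947% in control.

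Proteins of the Sm and LSm rings and other parts of the small nuclear ribonucleoproteins recognise splice sites or protect RNA ends. Of 41 measured, 29 were higher, with a median of 0.37, and 9 were higher (21.95%, against 3.8% of all genes) and 0 lower at an unadjusted p under 0.05. Lsm7 was at 36.4, 103 and 115 CPM under high glucose and at 208, 339 and 344 CPM with ZGW serum (1.81 ± 0.40), and Snrpe at 342, 335 and 325 CPM and at 527, 817 and 1325 CPM (1.41 ± 0.33). Both lay apart. Without the 2 end libraries 25 were higher, 3 of them at an unadjusted p under 0.05, and the median was 0.23. The splicing factors that join later, in complexes A, B and C, were counted apart: 19 of 45 were higher, with a median of -0.16, and at an unadjusted p under 0.05 0 were higher and 5 lower (11.1%, against 4.89% of all genes). Leaving out the 2 end libraries, 19 were again higher, with 1 higher and 2 lower at that level. With all 6 libraries, 345 of 5876 genes from 10 to 100 CPM were lower at that p. At 100 CPM or more, 240 of 1612 were. Srsf5, an arginine-serine-rich splicing factor, was at 133, 131 and 71.2 CPM and at 32.0, 68.5 and 19.7 CPM (-1.47 ± 0.48).

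Short and longer members of each list were also counted apart. Of the 22 lists with at least 5 of each, short members had the larger share of genes higher in 19 and longer members in 3. Over all 32 lists with both kinds the counts were 22 and 9, with 1 tie. Of RNA polymerase II, its general factors and Mediator, 18 of 27 members in the shortest class were higher against 9 of 40 longer ones. In the proteasome the counts were 6 of 7 and 9 of 32, in heat shock proteins and co-chaperones 7 of 11 and 11 of 41, and in maternal effect genes 16 of 18 and 14 of 56. In antioxidant and glutathione genes they were 22 of 32 and 6 of 21. In Sm, LSm and snRNP proteins they were 18 of 22 and 10 of 18. In the 3 lists that went the other way the counts were 6 of 30 and 8 of 17 for ubiquitin, SUMO and NEDD8 conjugation, 3 of 7 and 16 of 29 for autophagy and 0 of 10 and 3 of 34 for transient 2-cell genes. Of the 25 short histone genes 12 were higher.

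**Figure D3:**
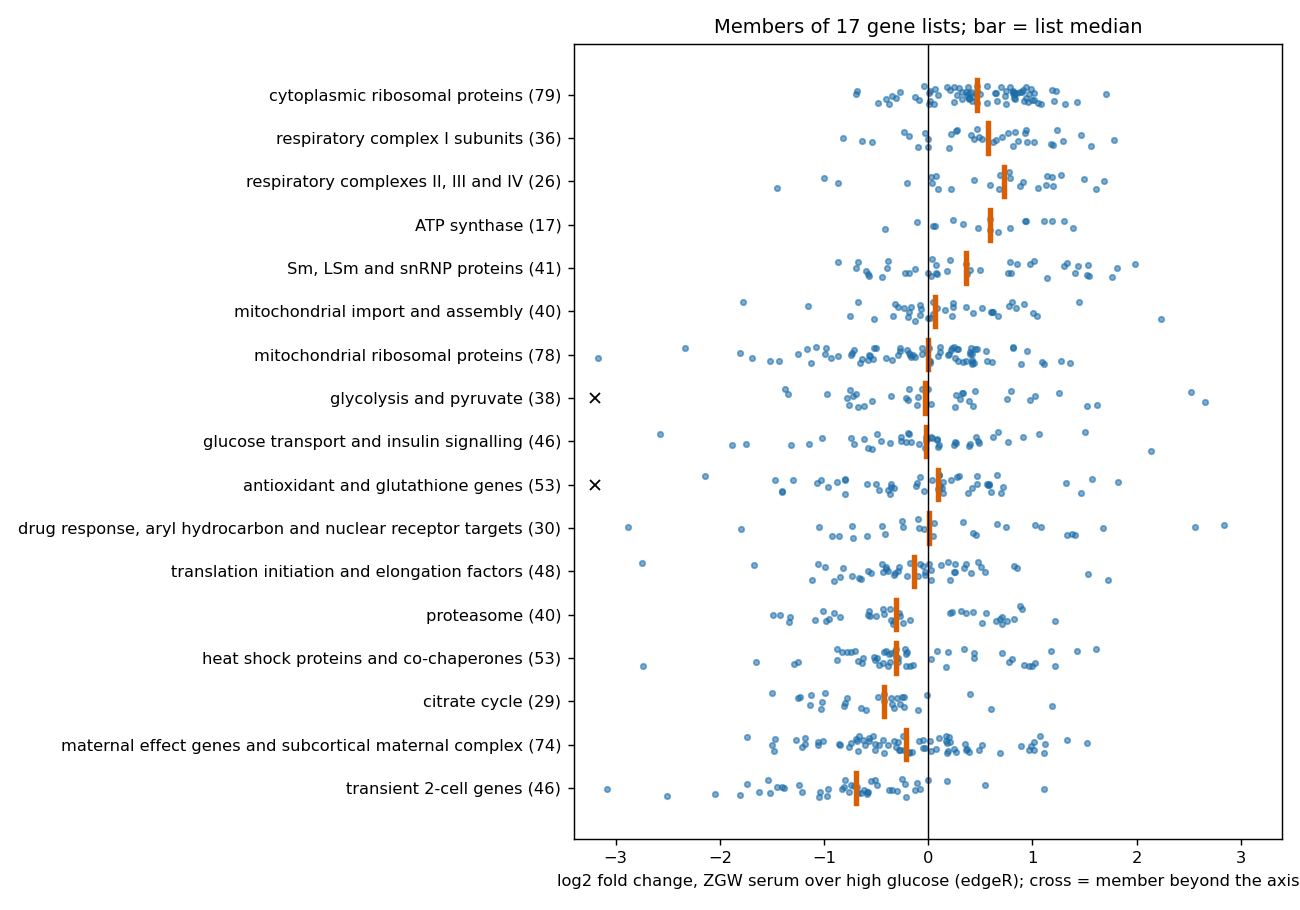
Log2 fold change of ZGW serum over high glucose (edgeR) for each measured member of 17 gene lists, with the number of members in brackets; dots are genes, bars are list medians, and crosses mark members beyond the axis. The upper 5 lists have medians from 0.37 to 0.73, and the citrate cycle and transient 2-cell genes have medians of -0.43 and -0.70.

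Genes that are transcribed for a short time at the 2-cell stage were lower with ZGW serum in 43 of 46 cases, with a median of -0.70. The test gave 17 lower (36.96%, against 4.89% of all genes) and 0 higher at an unadjusted p under 0.05. Usp17lc, a deubiquitinase gene on chromosome 7 from 103415072 to 103419880, plus strand, was at 93.3, 37.1 and 67.5 CPM under high glucose, at 15.9, 16.3 and 15.7 CPM with ZGW serum and at 26.9, 33.4 and 28.4 CPM in control. Zfp352, a zinc finger gene that arose from a retrotransposed copy, was at 124, 264 and 191 CPM under high glucose and at 74.8, 111 and 33.3 CPM with ZGW serum (-1.40 ± 0.43). Zscan4c, which has a part in telomere upkeep, was at 2111, 4375 and 2168 CPM and at 1396, 947 and 473 CPM (-1.62 ± 0.50). The groups did not overlap in these 3 genes, and replicate 3 of ZGW serum was lowest in each. Usp17lc, Zscan4c and most of their kind are members of families, and Zscan4c shares 85.5% of its stretches with other genes, so values of single members are uncertain. Ubtfl1, a relative of the nucleolar factor Ubtf, was at 214, 91.3 and 100 CPM and at 45.1, 56.1 and 40.7 CPM (-1.51 ± 0.36). By share of counts the groups overlapped, at 4.90%, 5.62% and 3.98% in high glucose libraries and 3.04%, 4.49% and 1.58% in ZGW serum libraries. Without the 2 end libraries 40 of 46 were lower, 10 of them at an unadjusted p under 0.05, with a median of -0.45.

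Maternal effect genes and the subcortical maternal complex, laid down in the oocyte, had members on both sides. Of 74 measured, 30 were higher and 44 lower, with a median of -0.21. At an unadjusted p under 0.05 6 were higher (8.11%, against 3.8% of all genes) and 15 lower (20.3%, against 4.89%). The list held 16.2%, 15.5% and 19.1% of counts in ZGW serum libraries against 10.7%, 11.6% and 13.4% in high glucose. Without Omt2a and Omt2b, which share sequence, the shares were 8.24%, 6.02% and 9.67% against 7.72%, 6.90% and 8.48% and overlapped, so these 2 genes carry the separation. Oosp1, an oocyte-secreted protein, was at 2305, 2579 and 2763 CPM under high glucose and at 4225, 4402 and 5534 CPM with ZGW serum (0.89 ± 0.21), while Gdf9, an oocyte growth factor, was at 319, 225 and 328 CPM and at 193, 129 and 200 CPM (-0.74 ± 0.31). The groups lay apart in both genes. The 10 most counted genes of each library took 17.02% ± 1.41 of the ZGW serum counts and 12.5% ± 0.697 of those of high glucose (SD, n = 3 each; by an exact two-sided permutation p = 0.1, the lowest possible for 3 libraries against 3). Omt2a and Omt2b are among these 10 genes in each library. They held 7.99%, 9.48% and 9.46% of counts with ZGW serum and 3.00%, 4.67% and 4.90% under high glucose. The top-10 share is therefore not separate from the difference in these 2 genes. Without the 2 end libraries the median of the list was -0.46, with 20 members higher and 54 lower.

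**Figure D4:**
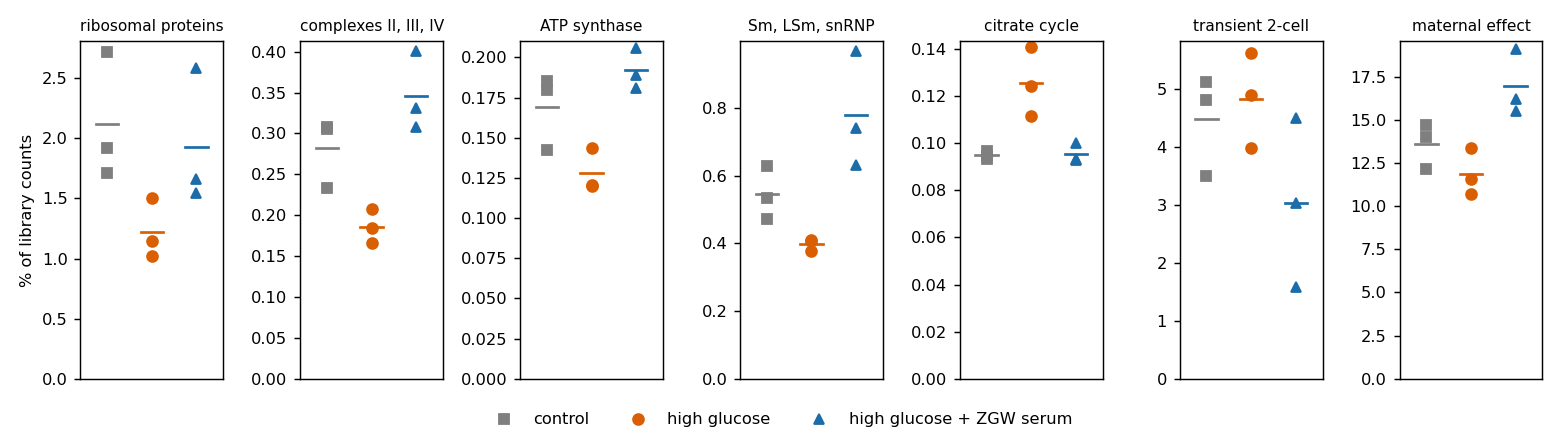
Percent of library counts held by 7 gene lists in each of the 9 libraries (symbols) with group means (bars); each axis starts at 0. The high glucose and ZGW serum libraries do not overlap except for transient 2-cell genes, where 4.49% in 1 ZGW serum library lies above 3.98% in 1 high glucose library.

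In 4 lists of folding, protein breakdown, mRNA storage and translation factors more members were lower than higher, as were genes of like level in all: 42.4% of genes from 10 to 100 CPM and 34.2% of those at 100 CPM or more were higher. At an unadjusted p under 0.05, 345 of 5876 genes from 10 to 100 CPM and 240 of 1612 at 100 CPM or more were lower. Heat shock proteins and co-chaperones were lower in 35 of 53 members, with a median of -0.30, and at an unadjusted p under 0.05 1 was higher and 6 lower (11.3%, against 4.89% of all genes). Leaving out the 2 end libraries, 36 were lower, 4 of them at that level. Hsp90ab1, the cytosolic Hsp90 of constant expression, was at 210, 104 and 155 CPM under high glucose and at 77.2, 75.6 and 104 CPM with ZGW serum (-0.87 ± 0.30), with groups that came close but did not overlap. Proteasome genes were lower in 24 of 40, with a median of -0.30 that was -0.06 without the 2 end libraries. Psmd11 of the regulatory particle was at 83.8, 42.6 and 86.1 CPM and at 26.6, 23.9 and 34.3 CPM (-1.33 ± 0.36). Genes of poly(A) binding, mRNA storage and decay were lower in 35 of 50 (33 without the 2 end libraries), with a median of -0.28, among them Cnot7, a deadenylase of the CCR4-NOT complex, at 1944, 1105 and 1186 CPM and then 882, 635 and 1031 CPM (-0.73 ± 0.28). Translation initiation and elongation factors had 29 of 48 lower and a median of -0.14, which was 0.00 with upper-quartile factors. At an unadjusted p under 0.05 0 of these were higher and 6 lower (12.5%, against 4.89% of all genes). Without the 2 end libraries these counts were the same. Eif2s1, the alpha subunit of the factor that brings the initiator tRNA, was at 108, 107 and 93.6 CPM and at 53.9, 52.2 and 59.4 CPM (-0.90 ± 0.24). Eif4e, which binds the cap, was at 1176, 793 and 751 CPM and at 581, 358 and 573 CPM (-0.85 ± 0.27). Neither gene had overlapping groups.

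Genes through which glucose is taken up and used were near evenly split. Of 46 genes of glucose transport and insulin signalling 21 were higher and 25 lower, with a median of -0.02, and 0 passed an unadjusted p under 0.05 in either direction. Glycolysis and pyruvate genes were split 19 and 19, with a median of -0.03. Aldoc, a brain-type aldolase, was at 13.0, 42.3 and 41.1 CPM under high glucose and at 72.0, 102 and 56.2 CPM with ZGW serum (1.26 ± 0.45), and Ldhb, a lactate dehydrogenase, at 1309, 1373 and 2006 CPM and at 1242, 437 and 1174 CPM (-0.72 ± 0.36). Pentose phosphate, hexosamine and polyol genes had 9 of 20 higher and 0 at an unadjusted p under 0.05. Genes that respond to drugs through the aryl hydrocarbon and nuclear receptors had 15 of 30 higher, with a median of 0.00. Immediate early genes, which serum and growth factors switch on, had 17 of 31 higher. At an unadjusted p under 0.05, 2 were higher (6.45%, against 3.8% of all genes) and 2 lower (6.45%, against 4.89%). Egr1 among these was at 17.9, 9.55 and 9.54 CPM and at 25.5, 18.8 and 27.7 CPM (0.96 ± 0.42), without overlap. In control it was at 26.8, 39.3 and 37.1 CPM. Spry4 went the other way, at 809, 601 and 916 CPM and at 558, 437 and 553 CPM (-0.59 ± 0.27), also without overlap. The standard error of a log2 fold change differed with level, with a median of 0.78 over all genes and 0.31 for genes at 100 CPM or more.

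Cell cycle genes held members of both kinds. Of 70, 27 were higher and 43 lower, with a median of -0.14, and 32 and 38 without the 2 end libraries. At an unadjusted p under 0.05, 5 were higher (7.14%, against 3.8% of all genes) and 4 lower (5.71%, against 4.89%). Pttg1, or securin, which blocks the separation of sister chromatids until anaphase, was at 1892, 2006 and 2394 CPM under high glucose and at 2980.4, 3089.6 and 6415 CPM with ZGW serum (0.99 ± 0.31). Cdc20, which activates the anaphase-promoting complex, was at 44.2, 35.8 and 55.5 CPM and at 76.5, 76.1 and 117 CPM (0.99 ± 0.32). Ccne2, a cyclin of entry into S phase, was at 280, 172 and 158 CPM and at 106, 84.6 and 89.3 CPM (-1.13 ± 0.36). With Fbxo5, described above, these 4 genes lay apart between the groups, 2 in each direction. Pold3, a subunit of the replicative DNA polymerase delta, was at 314, 186 and 284 CPM and at 158, 95.4 and 145 CPM (-0.98 ± 0.29). Among chromatin genes Cbx3, a heterochromatin protein, was at 316, 206 and 175 CPM and at 132, 70.5 and 66.9 CPM (-1.37 ± 0.34). Of the 65 chromatin genes measured 42 were lower and 35.4% higher. Of all genes, 42.4% from 10 to 100 CPM and 34.2% at 100 CPM or more were higher. At an unadjusted p under 0.05, 1 chromatin gene was higher (1.54%, against 3.8% of all genes) and 3 were lower (4.62%, against 4.89%).

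Genes of very short RNAs were counted too. Of 95 measured small nucleolar and Cajal body RNA genes 68 were higher, with a median of 0.43, and at an unadjusted p under 0.05 12 were higher (12.6%, against 3.8% of all genes) and 1 lower. Of 457 microRNA genes 352 were higher, with a median of 0.62, 25 higher (5.47%) and 2 lower at that level. In 127 (27.8%, against 9.08% of all genes) all ZGW serum libraries lay above all high glucose libraries, and in 17 all lay below. Most microRNA genes had low counts: 30 of the 457 averaged 10 CPM or more, and 22 of these 30 were higher. Low level alone went with more genes higher without overlap, at 197 of all 1385 genes under 1 CPM and 856 of 8091 from 1 to 10 CPM. Of these microRNA genes 69 have the same counts as another in every library, so they are not all separate measurements, and 321 of the 415 distinct count profiles were higher. Their summed level was 1362, 1603 and 1703 CPM under high glucose, 2143, 2099 and 2136 CPM with ZGW serum and 2040, 2174 and 1779 CPM in control. Snord72, chosen after its values were seen, was at 22.6, 26.3 and 28.2 CPM and at 52.6, 97.7 and 52.4 CPM (1.39 ± 0.36). Many such genes lie within others, and reads from a host gene cannot be told apart from theirs, since the counting is not given in the sources used here. By level, 63.2% of genes with a mean under 1 CPM and 56.6% of those from 1 to 10 CPM were higher, against 42.4% from 10 to 100 CPM and 34.2% of those at 100 CPM or more.

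Markers of other cells were read beside these groups. Blood markers summed to 86.4 to 309 CPM in high glucose libraries and 324 to 528 CPM in ZGW serum libraries (4 of 8 tested), mostly from Hba-a1 and Hba-a2, whose counts are identical in the table. Sperm and testis markers summed to 3.67 to 9.23 CPM and 13.7 to 18.7 CPM (5 of 5 tested), stroma and epithelium markers to 49.0 to 90.5 CPM and 11.7 to 49.2 CPM (6 of 10 tested, Dcn at 0 in all 6 libraries), and cumulus and granulosa markers to 5.68 to 13.2 CPM and 3.55 to 7.02 CPM (4 of 13 tested). Of the sperm and testis sums Prm2 alone made up 3.03, 5.62 and 1.79 CPM under high glucose and 10.5, 8.24 and 16.98 CPM with ZGW serum. Of those 5 markers 3 were higher and 2 lower with ZGW serum, and only Prm2 lay apart between the groups. Oocyte and zygote markers summed to 4711 to 5551 CPM and 5991 to 9152 CPM. Of these sums Oosp1 alone made up 2305, 2579 and 2763 CPM and then 4225, 4402 and 5534 CPM. Of the 8 markers 3 were higher and 5 lower with ZGW serum, with a median log2 fold change of -0.04. The part of these in the differences above was not tested. In pools of embryos, fewer cells with a transcript and less of it per cell cannot be told apart.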

How the data were processed

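RNA from 9 libraries of 3 pooled embryos each was sequenced by the authors. The deposited values are raw counts of reads per gene symbol. Per the submitters' processing notes, reads were handled with Trim Galore and the build mm10. For alignment, counting, strand and multiply mapped reads, tools and settings: not given in the sources used here. Groups and replicates came from the labels. edgeR 4.0.16 (R 4.3.3) fitted 1 mean per group to all 9 libraries (quasi-likelihood test, TMM factors, robust, filter at a minimum count of 10), with Benjamini-Hochberg adjustment over 16964 genes and a threshold of 0.05. CPM uses TMM-scaled library totals. Standard errors are the log2 fold change over the root of F. The genes named are the 12 of lowest p each way that average 10 CPM or more, without predicted or clone names, and up to 4 per list. Gene lists, members and rules were chosen with earlier results of these data known. Positions, coding lengths and shared 50-base stretches came from GENCODE M21. Between libraries of a group chi-square per degree of freedom was 46.5 to 124, so none was the same library sequenced again. This value cannot tell repeat preparations of the same pool from separate pools. Alternatives included DESeq2 1.42.0 and limma 3.58.1. The edgeR script was checked on simulated counts.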

Additional observations from a re-analysis of the deposited data

How the results depend on the processing

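No edgeR or limma-voom setting called a gene at an adjusted p under 0.05, and DESeq2 called 241. At an unadjusted p under 0.05 the main counts of 644 genes higher and 829 lower were 415 to 632 and 620 to 963 when 1 library was left out, the lowest count of higher genes being without high glucose replicate 1. Leaving out 1 library gave 2307 to 2803 genes higher and 2235 to 2470 lower with groups that do not overlap, which fewer samples make more frequent by construction, and a top-10 share difference of 3.68 to 5.02 percentage points (4.49 with all). Without both libraries at the ends of the first component, an alternative chosen after seeing the data, 331 genes were higher and 582 lower at an unadjusted p under 0.05, and groups did not overlap in 3629 higher and 3422 lower. Without a filter on low counts 795 genes were higher and 1229 lower. With the replicate number as a block (replicate block) 0 genes were called, with 571 higher and 888 lower at an unadjusted p under 0.05. The labels name no pairing of same-numbered libraries, whose deviations correlated at 0.0082, 0.104 and 0.0468. Each ZGW serum library correlated best with the high glucose library of its own number. Replicate 1 of high glucose correlated best with replicate 3 of ZGW serum, at 0.0458. The other pairs ran from -0.095 to -0.00056. The median length of genes higher was 316 codons at an unadjusted p under 0.05 and 404 among those with groups that do not overlap. Library totals were 11934924 counts or more, each group had 3 libraries and the biological coefficient of variation was 0.731.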
